A study of Mus musculus with 4 samples.

Results

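The lining of the colon is a sheet of epithelial cells sealed to one another by junctions, and 36 genes of these junctions were followed in scrapings of the colon of young and old mice. They were taken by symbol, as probe sets annotated to a single gene, from the 19938 genes so measured, and each of the 36 had 1 probe set. Of these genes 21 belong to the tight junction, 6 to the adherens junction, 8 to the desmosome, and the last is Mylk, the gene of myosin light chain kinase. The young mice were 4 months and the old mice 21 months old, all of them male and of the inbred strain C57BL/6J. After a shared run-in on a low-fat diet (10% of energy as fat), each age was split into a group that stayed on it and a group that ate a high-fat diet (45% of energy as fat) for 2 weeks. RNA of the 6 young or 8 old mice of a diet group was pooled and hybridized to 1 array, which gives 4 arrays, 1 for each group, and no replicate of any group. A pool has no spread between mice, and wild-type animals of a single strain and sex limit the groups as a model.

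Tight junctions lie near the lumen and close the gap between cells. Claudins form their strands and set which ions pass, occludin and the junctional adhesion molecules span the membrane beside them, and scaffold proteins of the ZO family and cingulin tie the strands to actin and myosin. Adherens junctions join cells through cadherins bound to catenins, and desmosomes join them through cadherins whose plaque proteins hold the keratin filaments. Myosin light chain kinase drives contraction of the actomyosin belt, which opens tight junctions, and in the gut these junctions are known for keeping bacteria and their products out of the tissue.

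Signals are given on the log2 scale, always in the order young low-fat, young high-fat, old low-fat and old high-fat. A signal counted as above the floor when it exceeded 50 on the linear scale. By that measure 32 of the 36 genes were above the floor on all 4 arrays, 2 more on at least 1 array, and 2 on no array, so that 34 entered the comparisons. The levels of different genes are not compared, since each probe set has its own brightness. Checked against markers of its label, the tissue had all 19 colonocyte genes listed above the floor on every array, with summed linear signals from 94168 to 95152, in which a few bright genes weigh most. Of 9 markers of the ileum 8 were above the floor as well, and Fabp6, the ileal bile acid binding protein, had log2 signals of 8.85, 9.40, 10.75 and 10.23. Albumin (Alb), a liver product, was above the floor on the old low-fat array alone (4.90, 5.00, 8.47 and 5.07). The part of these in the signals of the junction genes was not tested. The median log2 signal over all 35556 probe sets was 6.12, 6.19, 6.20 and 6.12, higher on the young high-fat and old low-fat arrays than on the other ones. In such bulk tissue fewer cells of a type and less RNA per cell cannot be told apart.

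None of the 34 junction genes differed by more than 2.0-fold in any of the 4 single comparisons. Over all 12666 genes tested, 0.426% did so between old and young on the low-fat diet, 0.663% between old and young on the high-fat diet, 0.118% between the diets in young mice and 0.103% between the diets in old mice. At a threshold of 1.5-fold the count of junction genes was still 0 in each, against 2.26%, 3.41%, 1.45% and 1.14% of all genes in the same order. The farthest single difference was that of Evpl on the low-fat diet, 1.48-fold lower in old mice. Smaller differences that had opposite signs in the groups were seen in Tjp3, Cgn, Jup and Evpl, genes of the junction plaque. Counts by direction and medians are given below for each class, and those of all genes tested stand here for comparison. In old mice 6474 were higher and 6182 lower on the low-fat diet (median 0.005), and 6718 and 5935 on the high-fat diet (median 0.015). On the high-fat diet 6201 were higher and 6455 lower in young mice (median -0.005), and 6517 and 6140 in old mice (median 0.007).

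**Figure D1:**
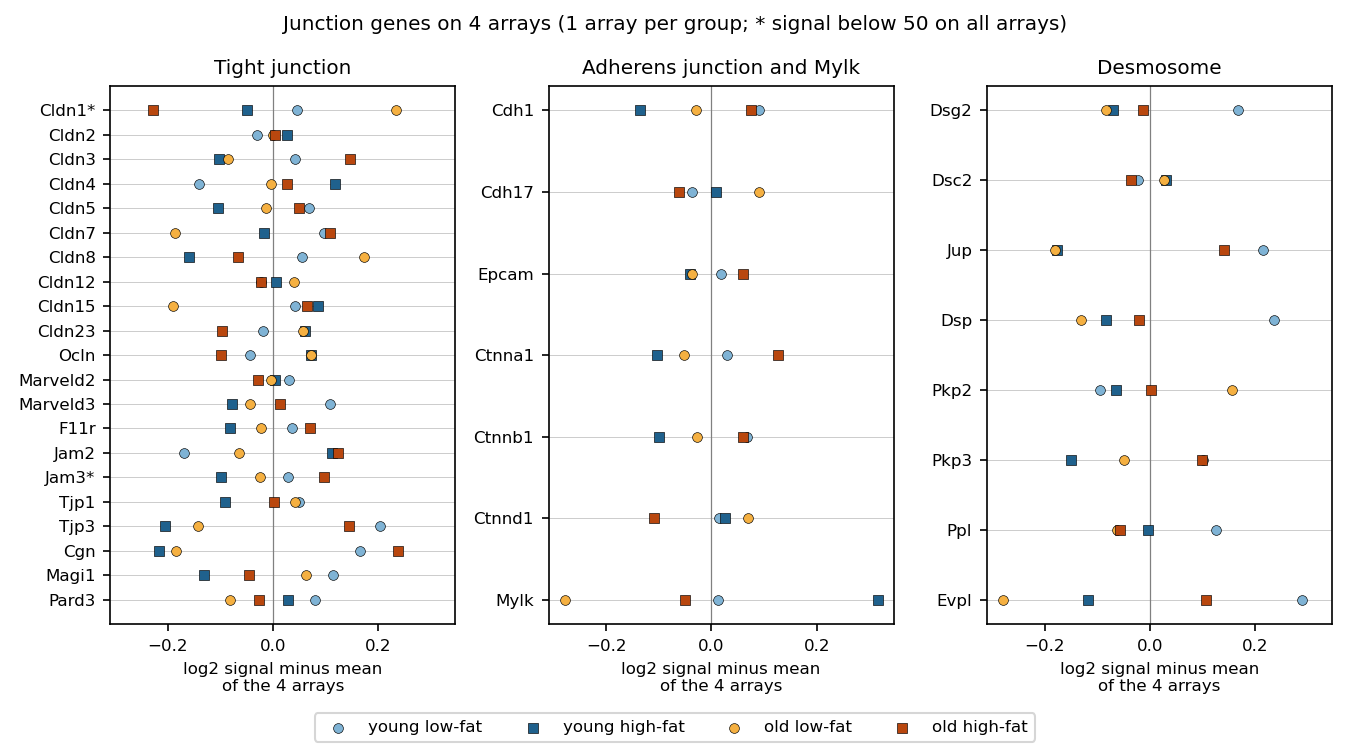
Each row is a junction gene and each point 1 array, plotted as its log2 signal minus the mean of that gene over the 4 arrays; circles are low-fat and squares high-fat, blue young and orange old. The points of most genes lie within 0.2 of the gene's mean, and Tjp3, Cgn, Jup, Evpl and Mylk spread farthest among the genes above the floor.

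The promoters of 3 of the genes whose differences changed sign together, Cgn, Jup and Tjp3, are shown so that their sequences can be set beside the signals. Each run is the 250 bases before the listed start of the gene in RefSeq on mouse assembly GRCm38.p6, written 5′ to 3′ on the strand of the gene. A promoter entry was found for 22 of the 36 genes, as 32 promoters. The window of Cgn lies at chr3:94786483-94786732, that of Jup at chr11:100397791-100398040 and that of Tjp3, at the more upstream of 2 listed starts, at chr10:81291582-81291831, all on the minus strand. Capitals mark matches to GGGCGG, the GC box, or to CAGGTG, the E-box that Snail and Zeb repressors bind, on either strand, and no match overlapped another.
Cgn: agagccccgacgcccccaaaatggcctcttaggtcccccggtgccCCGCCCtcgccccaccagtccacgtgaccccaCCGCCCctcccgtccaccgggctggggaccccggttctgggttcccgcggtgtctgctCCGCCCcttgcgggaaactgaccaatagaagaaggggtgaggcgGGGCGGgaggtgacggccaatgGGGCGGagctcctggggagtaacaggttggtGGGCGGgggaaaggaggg
Jup: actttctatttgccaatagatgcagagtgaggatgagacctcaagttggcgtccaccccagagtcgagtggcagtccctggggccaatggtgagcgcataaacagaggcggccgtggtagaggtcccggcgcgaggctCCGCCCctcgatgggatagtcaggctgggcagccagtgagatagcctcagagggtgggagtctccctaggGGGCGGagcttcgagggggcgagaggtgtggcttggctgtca
Tjp3: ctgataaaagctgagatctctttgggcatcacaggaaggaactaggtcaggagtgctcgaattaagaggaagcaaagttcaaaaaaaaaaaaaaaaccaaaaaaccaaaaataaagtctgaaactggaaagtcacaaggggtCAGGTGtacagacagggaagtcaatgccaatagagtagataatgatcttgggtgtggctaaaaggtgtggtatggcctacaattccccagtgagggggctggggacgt

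These sequences differed in make-up. G and C made up 70.4% of the Cgn window, 62.0% of that of Jup and 43.2% of that of Tjp3, with a median of 59.8% over the promoters of the junction genes and 52.4% over all 32851 promoters listed. Cgn held 6 GC boxes, Jup 2 and Tjp3 none, while Tjp3 held 1 E-box and the others none. A GC box occurred in 32.7% of all promoters and in 22 of the 32 of the junction genes (68.8%), and the E-box in 17.2% of all and 9 of the 32 (28.1%). The site AACCGGTT of Grainyhead-like factors, found in 0.116% of all promoters, and the HNF4 site CAAAGTCCA, found in 0.384%, were in none of the 32. A match is a description of these letters and no evidence of binding.

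To measure the effect of aging on the strands of the tight junction, the claudins were compared first. Cldn7, a claudin spread along the whole lateral membrane, had log2 signals of 11.66, 11.55, 11.38 and 11.67, so that the old arrays held both the lowest and the highest value. Cldn3, which seals the strand, had 11.16, 11.01, 11.03 and 11.26. Cldn15, which forms cation channels, had 9.61, 9.65, 9.37 and 9.63. The old low-fat array was the lowest for Cldn7 and Cldn15 and next to lowest for Cldn3, and the old high-fat array was not. Between old and young the difference of Cldn15 was -0.23 on low-fat and -0.02 on high-fat diet, and that of Cldn3 -0.13 and 0.25.

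Cldn8, a barrier claudin of the distal colon, differed by diet in the same direction at both ages. Its log2 signals were 10.28, 10.07, 10.40 and 10.16, both high-fat arrays being below both low-fat arrays. So few arrays can fall into such an order by chance, here and for the genes below. The share of all genes that separate by diet or by age in this way was not counted. The diet difference of Cldn8 was -0.21 in young and -0.24 in old mice. In the same comparisons Cldn4, another sealing claudin, was 0.26 and 0.03 higher, with log2 signals of 9.30, 9.56, 9.44 and 9.47, and its high-fat values lay above its low-fat values at both ages. The channel-forming Cldn2 kept within a range of 0.06 over the arrays, as did Cldn12 (0.06), while Cldn23 had a range of 0.16. Cldn1, a sealing claudin, was below the floor on all arrays with log2 signals of 4.46, 4.36, 4.64 and 4.18, and no fold is given for it. Cldn5, the claudin of blood vessels, had 5.69, 5.52, 5.61 and 5.67 and exceeded the floor on the young low-fat and old high-fat arrays. Over the 9 claudins tested, 5 were higher and 4 lower in old mice on the low-fat diet, with a median difference of 0.03, and 4 were higher and 5 lower on the high-fat diet, with a median of -0.02, and both medians turned sign when each array was centred on its median (-0.05 and 0.05). No direction is therefore given for the claudins as a class.

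The other transmembrane proteins of the tight junction showed equally narrow ranges. F11r, the junctional adhesion molecule JAM-A, had log2 signals of 11.11, 10.99, 11.05 and 11.14. Occludin (Ocln) had a range of 0.17 over the arrays, tricellulin (Marveld2), which seals the corners where cells meet, 0.06, and Marveld3 0.19. Jam2, found in vessels as well, had log2 signals of 5.36, 5.64, 5.46 and 5.65, so that both high-fat arrays were above both low-fat arrays. Its diet difference was 0.28 in young and 0.19 in old mice, but its signal exceeded the floor on the old high-fat array alone, and the difference in young mice is between 2 signals not above background (41.1 and 49.9 on the linear scale). Jam3, a relative of Jam2, stayed below the floor with 5.00, 4.88, 4.95 and 5.07. Since Cldn5, Jam2 and Jam3 are expressed by endothelial cells, the markers of those cells are given beside them. Of 17 endothelial markers 11 were above the floor on at least 1 array, Pecam1, Cd34, Vwf and Eng on all 4, whereas Kdr, Tek, Tie1, Emcn, Robo4 and Prox1 were below it on every array. Of the 11 tested, 10 were higher in old mice on the low-fat diet (median 0.28) and 9 on the high-fat diet (median 0.25), and the summed linear signal on the arrays was 906, 868, 1056 and 1051. Of all 12666 genes tested, 6474 and 6718 were higher in these comparisons. A marker near the floor could be tested through the array where it was highest. The part of the endothelial markers in the signals of Cldn5, Jam2 and Jam3 was not tested.

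The largest differences within the tight junction were found in its plaque. Tjp3 (ZO-3), a scaffold that binds claudins, had log2 signals of 10.30, 9.89, 9.96 and 10.24. Cgn, cingulin, which links ZO proteins to myosin, had 10.07, 9.69, 9.72 and 10.14. In both genes the young low-fat and the old high-fat array were high and the other two low, so that neither the ages nor the diets separated. On the low-fat diet Tjp3 was lower in old than in young mice by a log2 difference of -0.35, and on the high-fat diet it was higher by 0.35. For Cgn these differences were -0.35 and 0.45.

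The remaining plaque genes moved less. Tjp1 (ZO-1), the main scaffold, had log2 signals of 10.32, 10.18, 10.31 and 10.27. Magi1, a scaffold shared with the adherens junction, had 8.63, 8.39, 8.58 and 8.47. Pard3, the polarity protein Par-3, had 8.86, 8.81, 8.70 and 8.76. Both high-fat arrays were the lower ones for Tjp1 and Magi1, and both old arrays for Pard3, with small gaps that no replicate can judge. All 5 plaque and polarity genes were lower in old mice on the low-fat diet (median -0.16), and 4 of the 5 were higher on the high-fat diet (median 0.09). All 5 were likewise lower on the high-fat diet in young mice (median -0.25), and 3 of the 5 were higher on it in old mice (median 0.06).

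Genes of the adherens junction stayed close to their own means. Cdh1, E-cadherin, the adhesion protein that defines epithelia, had log2 signals of 12.26, 12.03, 12.14 and 12.24. Epcam, the epithelial cell adhesion molecule, had 12.44, 12.38, 12.39 and 12.48. The young low-fat and old high-fat arrays were again the upper pair for both, within a range of 0.23 and 0.10. Cdh17, the intestinal LI-cadherin, was highest on the old low-fat array and had a range of 0.15.

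Of the catenins, which tie cadherins to actin, Ctnna1 (alpha-catenin) had log2 signals of 11.11, 10.97, 11.03 and 11.20. Ctnnd1, p120-catenin, which keeps cadherins at the membrane, had 11.15, 11.16, 11.21 and 11.03. In old mice on the high-fat diet alpha-catenin was at its highest and p120-catenin at its lowest. Ctnnb1, beta-catenin, had a range of 0.17. Of the 6 genes 2 were higher and 4 lower in old mice on the low-fat diet, with a median of -0.07, and 4 were higher and 2 lower on the high-fat diet, with a median of 0.13.

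The ranges over the arrays reached farther in the desmosome. Jup, plakoglobin, which joins desmosomal cadherins to desmoplakin and is also found in adherens junctions, had log2 signals of 10.40, 10.01, 10.00 and 10.32. Evpl, envoplakin, a plakin best known from stratified epithelia, had 7.43, 7.02, 6.86 and 7.25. Dsp, desmoplakin, the anchor of the keratin filaments, had 11.27, 10.95, 10.90 and 11.02. Jup and Evpl were high on the young low-fat and old high-fat arrays and low on the other two, whereas Dsp was high on the young low-fat array alone. In old against young mice the differences of Jup were -0.40 and 0.32, those of Evpl -0.57 and 0.22, and those of Dsp -0.37 and 0.06, first for the low-fat and then for the high-fat diet.

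Pkp2, plakophilin 2, an organizer of the plaque, was the one gene of the desmosome that was higher in old mice on both diets. Its log2 signals were 8.57, 8.60, 8.82 and 8.67, with age differences of 0.25 and 0.07. Its relative Pkp3 had 8.19, 7.94, 8.04 and 8.18 and followed the upper and lower pairs of Jup. Both old arrays were above both young arrays for Pkp2, while the ages overlapped for Pkp3.

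The desmosomal cadherin Dsg2 had log2 signals of 11.24, 11.01, 10.99 and 11.06, the young low-fat array standing above the other three. Its partner Dsc2 had 11.16, 11.22, 11.21 and 11.15, a range of 0.07. Periplakin (Ppl) had 7.16, 7.03, 6.97 and 6.97, both old arrays being below both young ones. Of the 8 desmosome genes 6 were lower in old mice on the low-fat diet (median -0.22) and 6 were higher on the high-fat diet (median 0.06). Between diets 6 were lower on the high-fat diet in young mice (median -0.24) and 6 higher in old mice (median 0.09). Plakins are also made by squamous epithelium, of whose 17 listed markers 13 were below the floor on every array, Krt5, Krt4, Trp63, Dsg3 and Ivl among them. The 4 tested, Krt10, Krt14, Pkp1 and Sprr1a, had a median age difference of -0.26 on low-fat and 0.24 on high-fat diet, and all 4 were higher on the high-fat diet in old mice. The linear signals of all 17, most of which were below the floor, summed to 955, 916, 907 and 1063. The upper pair of arrays was that of Jup and Evpl, but the sum includes background signal. The part of squamous epithelium in the signals of Jup and Evpl was not tested.

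Mylk was the junction gene with the widest range over the arrays, 0.59. Its log2 signals were 8.10, 8.41, 7.81 and 8.04, so that both old arrays lay below both young arrays, by -0.29 on low-fat and -0.37 on high-fat diet. It was 0.30 higher on the high-fat diet in young and 0.23 in old mice. Myosin light chain kinase is made by smooth muscle too, and 18 smooth muscle markers gave summed linear signals of 3410, 6166, 3707 and 3315, with 17 of them above the floor. Myh11, the smooth muscle myosin, had log2 signals of 7.50, 8.93, 7.64 and 7.57. The young high-fat array was the highest for Mylk and for the markers, but the old low-fat array, the lowest for Mylk, was not the lowest in their sum. The part of muscle in the signal of Mylk was not tested.

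At a threshold of 1.2-fold (0.26 on the log2 scale) the junction genes were then counted by direction. None was higher in old mice on the low-fat diet (12.1% of all genes were), and 7 of 34 were lower, or 20.6% against 10.4% of all genes: Cldn7, Tjp3, Cgn, Jup, Dsp, Evpl and Mylk. On the high-fat diet 3 were higher in old mice, Tjp3, Cgn and Jup (8.82% against 14.8%), and 1, Mylk, was lower (2.94% against 10.3%). In young mice 2 were higher on the high-fat diet, Mylk and, with both signals below the floor, Jam2 (5.88% against 10.8%), and 5 lower, Tjp3, Cgn, Jup, Dsp and Evpl (14.7% against 11.4%). In old mice 5 were higher on the high-fat diet, Cldn7, Tjp3, Cgn, Jup and Evpl (14.7% against 10.6%), and none was lower (8.85%). These shares lay on both sides of the background and rest on few genes. With each array centred on its median, the lower genes with age on the low-fat diet numbered 10 (29.4% against 18.7% of all genes under the same scaling) and the higher ones 0 (7.09%). The higher genes with age on the high-fat diet then numbered 8 (23.5% against 21.4%) and the lower ones 1 (5.84% of all genes). In young mice 10 were lower on the high-fat diet (29.4% against 19.0%) and 0 higher (6.47%), and in old mice 9 were higher (26.5% against 18.7%) and 0 lower (4.45%).

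**Figure D2:**
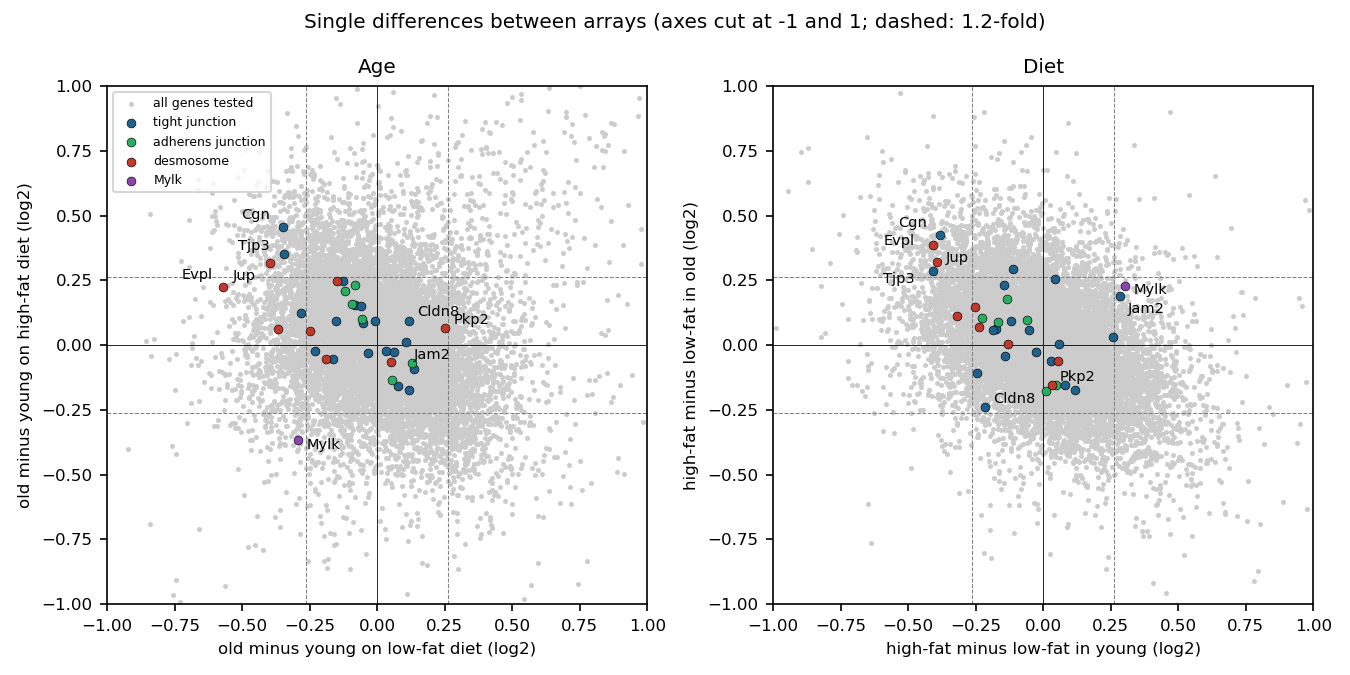
Each point is a gene: on the left its log2 difference between old and young mice on the low-fat (horizontal) and the high-fat diet (vertical), on the right its difference between high-fat and low-fat diet in young (horizontal) and old mice (vertical). Grey points are all genes tested, coloured points the junction genes, dashed lines 1.2-fold; Tjp3, Cgn and Jup lie beyond the dashed lines at the upper left of both panels and Mylk in the lower left of the age panel.

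Tjp3, Cgn and Jup were thus past 1.2-fold in opposite directions, lower in old mice on the low-fat and higher on the high-fat diet, as were 2.92% of all genes tested (8.82% of the junction genes). Together with Evpl they were also lower on the high-fat diet in young and higher on it in old mice, as were 3.62% of all genes (11.8% of the junction genes). The age comparisons and the diet comparisons are made from the same 4 arrays, so that these counts are not separate evidence. The difference between the age differences on the high-fat and low-fat diet was 0.70 for Tjp3, 0.80 for Cgn and 0.71 for Jup on the log2 scale. It was not tested, since no group had a replicate array.

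The upper and lower pairs of arrays were not particular to those genes. Between the young low-fat and old high-fat arrays the median absolute log2 difference was 0.069 over the junction genes and 0.107 over all genes tested, and between the young high-fat and old low-fat arrays 0.061 and 0.106. In the 4 pairs that shared an age or a diet it ranged from 0.098 to 0.143 over the junction genes and from 0.131 to 0.147 over all genes. Arrays that differed in both age and diet were therefore closer to each other than arrays that shared either. With 1 array for each group, exchanged arrays or a batch cannot be told apart from an age difference that varies with diet, and an exchange of the diets at 1 age would turn the diet differences given for that age and the change of sign. The 12146 probe sets with no gene listed had median log2 signals of 5.63, 5.82, 5.80 and 5.65, high where Tjp3, Cgn and Jup were low. A gene that was past 1.2-fold in these opposite directions by age or by diet is said below to share the pattern, as did 564 of the 12666 genes tested. The mirror pattern, with each sign turned, was seen in 507 of all genes tested and in 0 of the 34 junction genes. Of 13 adipocyte markers tested 9 shared the pattern, among them Adipoq, Fabp4 and Lpl, and 1, Adig, had the mirror pattern. Their list of 15 had summed linear signals of 3618, 2660, 3517 and 5651. Of the 19 colonocyte markers Atp12a, Cdhr2 and Vil1 shared the pattern and 0 had its mirror. Of 17 smooth muscle markers Acta2, Pgm5 and Tagln had the mirror pattern and 0 shared the pattern itself. The part of the probe sets without a gene and of fat tissue in the pattern was not tested.

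Other genes of these junctions were then examined from lists chosen with earlier results in view. Among 8 other desmosome and hemidesmosome genes the pattern was shared by Plec, plectin, which cross-links keratin to the membrane (9.90, 9.33, 9.30 and 9.81), by Itgb4, a hemidesmosome integrin (9.46, 9.01, 9.08 and 9.29), and by Pkp1. Among 6 simple epithelial keratins, whose filaments end in desmosomes, Krt19 had log2 signals of 13.35, 12.91, 12.78 and 13.38. All 6 keratins were lower in old mice on the low-fat diet (median -0.16) and higher on the high-fat diet (median 0.19). In this list, too, the young low-fat and old high-fat arrays were the high ones for Krt18 and Krt19.

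Among 30 regulators of junctions it was shared by Myh9 and Myh14, the nonmuscle myosin heavy chains of the actomyosin belt, by Vil1, the microvillus protein villin, and by Hnf4a, a transcription factor of intestinal epithelium. Myh14 had log2 signals of 10.76, 10.22, 10.23 and 10.68. Hnf4a had 11.67, 11.23, 11.29 and 11.62. Only 1 of the 30 regulators was past 2.0-fold, Myl9, the gene of a myosin light chain. It differed by -1.01 between old and young mice on the high-fat diet and by 0.90 between the diets in young mice. In these 2 comparisons the medians of 17 smooth muscle markers were -0.81 and 0.90. Myl9 is itself among those markers, and the median of 0.90 is its own value, so that this likeness carries no weight. The part of muscle in the signal of Myl9 was not tested. Of the repressors of E-cadherin, Snai1 had 6.03, 6.22, 6.04 and 6.05 and Zeb1 5.75, 5.90, 5.90 and 5.97, while Snai2 and Twist1 were below the floor on every array. Zeb2 was above it on the old low-fat array alone, with 5.18, 5.22, 5.67 and 5.35, and its age difference of 0.49 on low-fat diet was the highest among the 30 regulators. The differences between ages were at most 0.17 in size for Snai1 and Zeb1. Of 21 other tight junction and polarity genes Sympk and Amotl2 shared the pattern, of 17 other adherens junction genes Arvcf, and of 6 gap junction genes none. Limd1, also among the 17 adherens junction genes, had the mirror pattern.

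**Figure D3:**
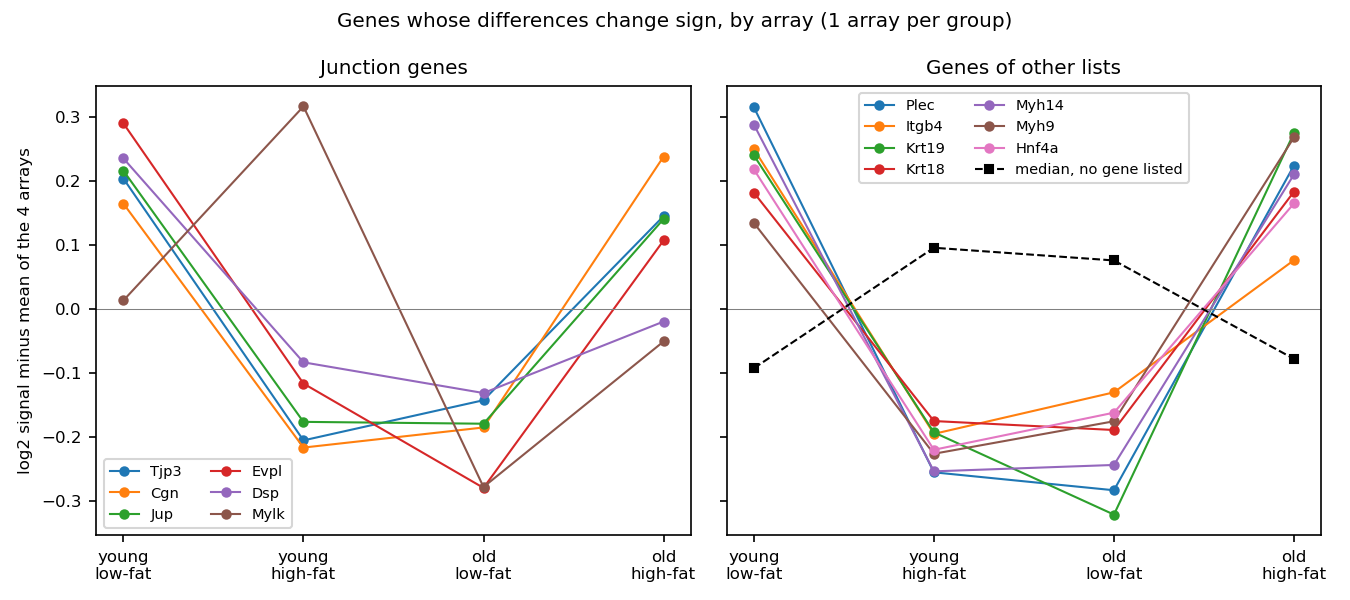
The vertical axis is the log2 signal minus the mean of the 4 arrays, the horizontal axis the 4 arrays, and lines only join the points of a gene. On the left are the junction genes with the widest ranges. On the right are genes of other lists, plotted because their differences changed sign, and in black the median of the probe sets with no gene listed, which was high on the young high-fat and old low-fat arrays (5.82 and 5.80) and low on the other two (5.63 and 5.65).

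Gja1, connexin 43, a gap junction channel protein of smooth muscle and other stromal cells, had log2 signals of 7.32, 7.64, 6.75 and 6.70, with both old arrays below both young ones. Its age difference was -0.56 on low-fat and -0.93 on high-fat diet. The mucus layer that lies over the junctions was followed in a list of 13 genes, which also holds the colonocyte marker Slc26a3. Of these, 6 were higher and 7 lower in old mice on the low-fat diet (median -0.02), and 8 higher and 5 lower on the high-fat diet (median 0.01). Retnlb, a goblet cell peptide, spanned the most of them with 7.93, 8.77, 8.64 and 8.40, and had the mirror pattern.

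A test across arrays was available only as an additive fit of age and diet with limma, in which 2 arrays stand against 2 and the error comes from how far the age difference varies with diet. No junction gene passed an adjusted p of 0.05 (Benjamini-Hochberg over 12666 genes) for age, where 0.395% of all genes passed (50 genes), or for diet, where 0% did. At an unadjusted p under 0.05 in limma there were 0 junction genes for either term, against 466 (3.68%) and 91 (0.718%) of all genes. With shares this low, a set of 34 genes would hold few or none, so the 0 does not set the junction genes apart. Fitted changes of the 34 genes ran from -0.33 for Mylk to 0.16 for Pkp2 with age, and from -0.23 for Cldn8 to 0.27 for Mylk with diet, with standard errors (SE) from 0.155 to 0.201. All adjusted p-values of the junction genes in limma were 1.

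The intervals of the fit concern a change averaged over the other factor. They do not cover a change on a single diet or at a single age. For Mylk the age change was -0.33 ± 0.16 (SE, 95% interval -0.68 to 0.02) and the diet change 0.27 ± 0.16 (-0.08 to 0.61). For Cdh1 the age change was 0.05 ± 0.16 (-0.32 to 0.41) and for Evpl -0.17 ± 0.20 (-0.62 to 0.27). The diet change was -0.23 ± 0.16 for Cldn8 (-0.57 to 0.12) and 0.24 ± 0.16 for Jam2 (-0.11 to 0.58), and the age change of Pkp2 was 0.16 ± 0.16 (-0.19 to 0.51). Jam2 entered the fit only through the old high-fat array, its highest, so that the filter itself favours a positive diet change. Cgn, whose differences cancelled between groups, had changes of 0.05 ± 0.20 with age and 0.02 ± 0.20 with diet. The interval lay within 2.0-fold for all 34 genes in both terms, and within 1.5-fold for 32 genes with age (not Evpl and Mylk) and 33 with diet (not Mylk). The 1 residual degree of freedom holds variation between pools and the age-by-diet difference together, and the prior weighs more in the SE than it does.

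**Figure D4:**
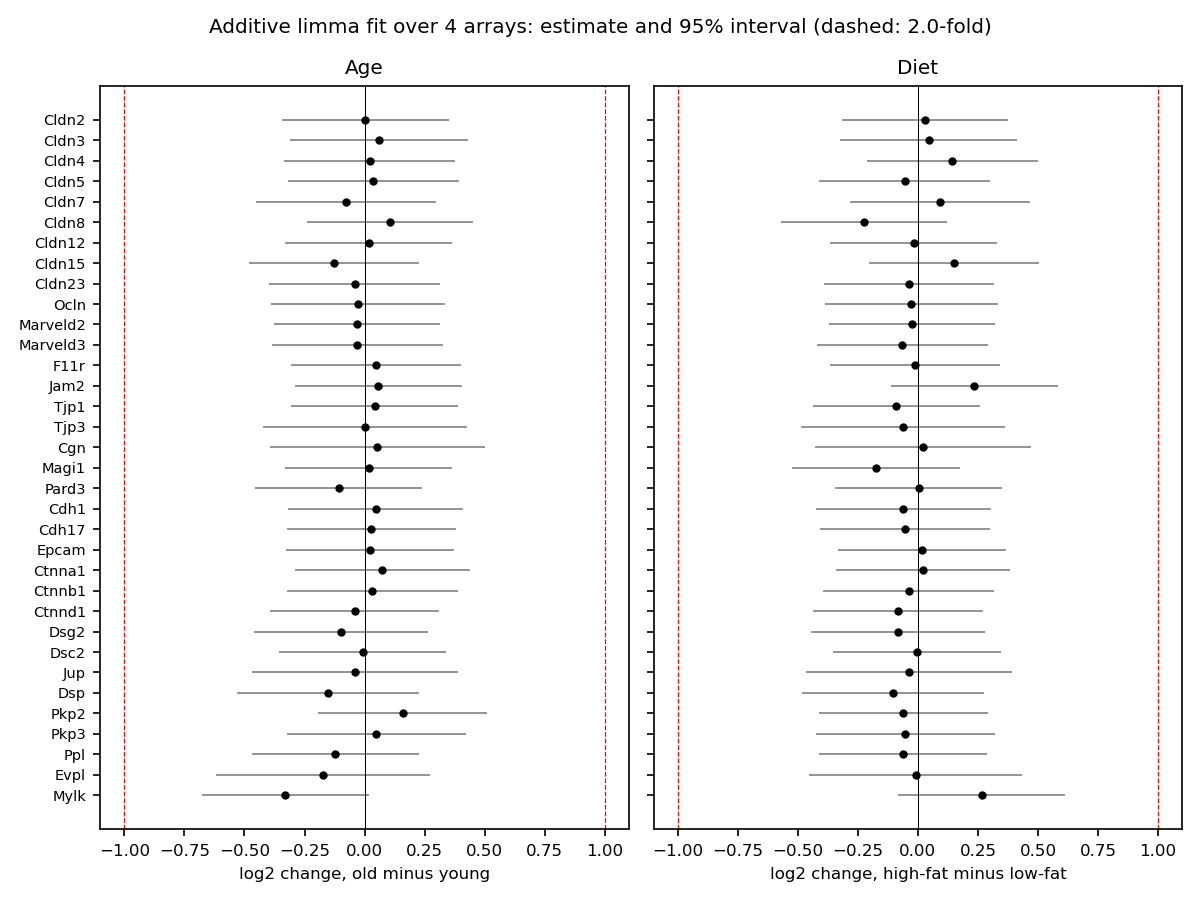
Points are the log2 changes of the 34 junction genes in the additive limma fit, old minus young on the left and high-fat minus low-fat on the right, and bars are 95% intervals; dashed lines mark 2.0-fold. All bars cross 0 and stay within 2.0-fold, and Mylk lies farthest from 0 in both panels.

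On the same arrays the fit passed 15 of 16 interferon and MHC class II genes for age, all of them higher in old mice, and 4 of 12 leukocyte markers (Cd8a, Jchain, Lyz2 and Ms4a1). The study chose immune genes on these arrays, so their direction is not independent evidence. It passed none of the 21 other tight junction and polarity genes, 17 other adherens junction genes, 8 other desmosome and hemidesmosome genes, 6 gap junction genes, 30 junction regulators, 6 keratins and 13 mucus genes, for age or for diet. The lists differ in size and expression, and the difference between them was not tested.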

How the data were processed

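RNA of colon scrapings (mucosa and submucosa) was measured on 4 Affymetrix Mouse Gene 1.0 ST arrays, each with RNA pooled in equal amounts from the 6 young or 8 old mice of a group. The authors deposited log2 signals made by RMA (background subtraction, quantile normalization and probe summarization), whose version is not given in the sources used. Probe sets were redefined by gene according to the study, but the rows used here have the manufacturer's identifiers. Quantile normalization is meant to remove differences in overall signal, so that small shifts are relative. The medians of the deposited arrays still differed, as given above.

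Of 35556 probe sets 21789 were annotated to 1 gene, 1621 to several (not named) and 12146 to none. The brightest probe set stood for each gene. Genes above a linear signal of 50 on at least 1 array were tested (12666), after removal of pancreatic acinar genes (27 measured). Single comparisons had no replicate and no p-value, and their thresholds were 2.0-fold, as in the study, 1.5-fold and 1.2-fold. Age and diet were fitted additively with limma 3.58.1 in R 4.3.3 (lmFit, eBayes, Benjamini-Hochberg adjusted p under 0.05), with 1 residual and 8.92 prior degrees of freedom. The fit was tested on simulated data. The number of arrays limits the precision.

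The junction genes and gene lists were chosen with earlier results of these data known. Values on all arrays are given for the gene with the highest mean signal of each class, the 2 genes of each junction with the most positive and most negative mean difference by age and by diet, genes below the floor, and genes past 1.2-fold in opposite directions. Cldn4, Ppl and Mylk were added after their values were seen, and Cldn5 is given outside this rule as well. Alternatives were other floors and thresholds, median centring, quantile normalization, averaged probe sets per gene, omission of Cldn5, Jam2 and Jam3, other settings of the fit, and fits without each array. Setting arrays against those that differ in both age and diet, all counts at 1.2-fold and the rescaled medians of smaller gene classes were added after the data were seen. Promoter sequences came from RefSeq, assembly GRCm38.p6.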

Additional observations from a re-analysis of the deposited data

Results flagged for a closer look

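In 4 of the 34 junction genes tested the difference had opposite signs in both comparisons of the same contrast, each past 1.2-fold. Of all 12666 genes tested, 564 did so in the direction of these 4 and 507 in the mirror direction. The rule takes either direction, so that the flag does not set the junction genes apart. The age difference on the high-fat diet minus that on the low-fat diet was 0.70 for Tjp3, 0.80 for Cgn and 0.71 for Jup on the log2 scale. For Evpl the diet difference in old mice minus that in young mice was 0.79. These differences between groups were not tested, because no group had more than 1 array. The arrays that shared neither age nor diet were the ones closest to each other over all genes as well, as given above.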

How the results depend on the processing

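The counts of junction genes past 2.0-fold and of those that passed limma stayed at 0 under every alternative run. The count past 2.0-fold could not have risen with the floor of 100, the 3.0-fold threshold or averaged probe sets. The medians of the tight junction, adherens junction and desmosome genes kept their sign under all alternatives. Averaging could not move these medians, since each junction gene had 1 probe set. Their largest shift was 0.079 on the log2 scale under median centring, which moved the median of all tested genes by at most 0.081. Medians of smaller classes were recomputed under both scalings after the data were seen. That of the claudins turned sign for age on the low-fat diet under both (-0.05 under centring, -0.01 under quantile normalization) and for age on the high-fat diet under centring (0.05). Those of the plaque genes and keratins did not turn. The genes past 1.2-fold in opposite directions numbered 4 in place of 3 for age under centring and quantile normalization, and 4 for diet throughout, against 6.85% and 7.46% of all genes under centring and 5.47% and 6.00% under quantile normalization. Other counts at 1.2-fold moved more. Under quantile normalization 10 genes were lower in old mice on the low-fat diet (29.4% against 17.2% of all genes) and 5 higher on the high-fat diet (14.7% against 17.8%), and in young mice 7 were lower on the high-fat diet (20.6% against 17.5%) and 0 higher (7.33% of all genes). Between arrays sharing neither age nor diet, 1 gene was higher (8.55% of all genes) and 2 lower (6.25%) in old low-fat than in young high-fat mice. In old high-fat against young low-fat mice 1 was higher (8.03%), Jam2, above the floor on the old high-fat array alone, and 0 were lower (5.82%). The cause was not tested.

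Without each array in turn, in fits with a single term, the changes that turned sign ranged from -0.067 to 0.16 for Cdh1 with age, from -0.38 to 0.030 for Evpl with age, from -0.16 to 0.26 for Cgn with age and from -0.21 to 0.25 for Cgn with diet. The Mylk change kept its sign, from -0.48 to -0.18 with age and from 0.08 to 0.45 with diet, its size being lowest without the young high-fat array (-0.18 and 0.08) and next lowest without the old low-fat array (-0.22 and 0.12). The age change of Pkp2 fell to 0.08 without the old low-fat array. Where a group is left with 1 array, it is assumed to vary like the others. No paired analysis was possible because each group has 1 array, so that the groups share fewer than 2 replicate numbers.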
